A study of Drosophila melanogaster with 12 samples.

Results

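The metal handling genes of the midgut described here are the 5 metallothionein genes MtnA, MtnB, MtnC, MtnD and MtnE, the ferritin subunit genes Fer1HCH and Fer2LCH, the copper importer gene Ctr1B and the zinc transporter gene ZnT35C. They were taken by name as 9 of the 17617 genes with a value in every library, and 8 of the 9 passed the filter on low values. The measurements come from midgut progenitors of adult female Drosophila melanogaster, isolated by their green fluorescence in a cell sorter, with a library kit that reads the 3′ end of each mRNA. Every fly carried the esgtsGFP driver, which also marks the sorted cells. It was crossed to w1118 in the control groups and to UAS-trxRNAi (BDSC#33703), a hairpin construct against the histone methyltransferase gene trithorax (trx), in the trxRNAi groups. Mated females, 3 to 4 days old, spent 7 days at 29 °C. Over the final 48 h they fed on 5% sucrose, or on 3% DSS (dextran sulfate sodium), a polymer that injures the gut lining. Each of the 4 groups (control sucrose, control DSS, trxRNAi sucrose and trxRNAi DSS) held 3 libraries, and the labels do not say whether these came from separate flies.

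Metallothioneins are small cysteine-rich proteins that bind copper, zinc and cadmium, and in flies their genes are switched on by the metal-responsive factor MTF-1. Ferritin is a shell of heavy and light chains that stores iron, and in insects much of it lies in the secretory pathway. In the fly midgut the middle region holds acid-secreting copper cells and, behind them, iron cells that are rich in ferritin. The genes are therefore known as readouts of these regions, although here they were measured in cells sorted as progenitors.

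Values are the deposited whole numbers, which look like read counts scaled per library and rounded, so the depth of reading is not known exactly. Their totals ranged from 5362337 to 6520981 per library. Each difference is given as log2 of value plus 2, with its standard error (SE) from a limma model of all 12 libraries, and adjusted p is the Benjamini-Hochberg value over the 8399 genes tested, with a threshold of 0.05. A lower level in a bulk sample cannot tell fewer cells of a type from less RNA per cell. Under sucrose the RNAi target trx measured 1114, 1217 and 1313 where the label was control and 668, 667 and 448 where it was trxRNAi, a difference of -1.05 ± 0.19 (SE) with an adjusted p of 0.00356 by limma. Under DSS the values were 841, 1041 and 652 in control and 715, 758 and 808 in trxRNAi, a difference of -0.13 ± 0.19 (adjusted p = 0.772, limma). The ranges of trx overlapped under DSS, so the target does not check the genotype there. The enteroendocrine hormone gene NPF, in contrast, was low in both trxRNAi groups, with 7481 to 12080 in control and 794 to 1340 in trxRNAi under DSS and 7491 to 11446 and 1005 to 2156 under sucrose. Whether labels were exchanged between libraries was not tested. Group names below are therefore the labels, and every direction under DSS is one between libraries so labelled.

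The 8 progenitor markers summed to 1313 to 1591 per 1000000 of total value with sucrose and 1366 to 1919 with DSS in control, against 1283 to 2045 with sucrose and 1120 to 1249 with DSS in trxRNAi. Under DSS 3 of the 8 (Dl, mira and spdo) were lower in trxRNAi, where 5.62% of all tested genes were lower, and 4 of 8 had a negative interaction, where 5.25% of all tested genes did. The stem cell ligand gene Dl averaged 1068 with sucrose and 1942 with DSS in control, against 1571 with sucrose and 792 with DSS in trxRNAi, the reverse of the high and low groups given for MtnE below. Whether this had a part in the metal gene values was not tested. Enterocyte markers summed to 400 to 1500 per 1000000 over all libraries. The summed level of the 7 enteroendocrine markers moved with the genotype label. It was 2294 to 3582 per 1000000 with sucrose and 2301 to 3500 with DSS in control. In trxRNAi it was 501 to 773 with sucrose and 267 to 477 with DSS. The marker gene pros did not follow the label. It averaged 403 with sucrose and 1105 with DSS in control, against 1043 with sucrose and 101 with DSS in trxRNAi. Its high and low groups were those of Dl. Averaged over both feeds 6 of the 7 markers were lower in trxRNAi, where 2.62% of all tested genes were lower. The part of these markers in the metal gene values was not tested. Of 6 hemocyte markers, eater was at 0 in every library, NimC1 and Hml did not exceed 4, and the scavenger receptor gene crq made up nearly all of the summed level. Fat body markers summed to at most 7.09 per 1000000, visceral muscle markers to at most 16.5 and trachea markers to at most 22.3. The 4 neuron markers stood higher, at 125 to 302 per 1000000 over all libraries. Under DSS 3 of these 4 were lower in trxRNAi, where 5.62% of all tested genes were lower.

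In dm6 coordinates 8 of the genes lie on chromosome arm 3R, and ZnT35C lies on 2L. Fer1HCH (FBgn0015222, 30385573 to 30388178, minus strand) and Fer2LCH (FBgn0015221, 30387804 to 30390584, plus strand) are transcribed away from each other, and their annotated 5′ ends overlap over 375 bases. The kit reads 3′ ends, which lie outside this stretch in both genes as annotated. MtnE (FBgn0262146, 20534021 to 20534704, minus strand) and MtnD (FBgn0053192, 20534962 to 20535301, plus strand) point away from each other with 257 bases between them. MtnB (FBgn0002869, 20503102 to 20503746) and MtnC (FBgn0038790, 20360308 to 20360634) lie on the same arm, with 142467 bases between them and 30274 bases between MtnB and MtnE, while MtnA (FBgn0002868, 9783407 to 9784370) and Ctr1B (FBgn0062412, 8317612 to 8319205) stand apart from the cluster. Ctr1B overlaps the 3′ end of the opposite-strand gene Poxm over 181 bases at its own 3′ end. Poxm, whose reads there could not be told apart without strand, was at 0 in every library, and the same-strand lncRNA:CR45215, which overlaps the 5′ part of Ctr1B, did not exceed 1. ZnT35C is FBgn0028516 (15228728 to 15247714). Reads that match several metallothionein genes may have been split or dropped in counting, which the sources do not state, so the division among these paralogs is uncertain.

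Ctr1B gave the largest genotype difference among the 8 tested metal handling genes. Ctr1B, a high-affinity copper importer of the gut, had values of 24, 25 and 53 in control sucrose and 8, 11 and 15 in control DSS. In trxRNAi sucrose it had 23, 11 and 29, and in trxRNAi DSS 64, 62 and 48. Every trxRNAi DSS library lay above every control DSS and every trxRNAi sucrose library, while control sucrose replicate 3 reached into the trxRNAi DSS range. Under DSS the gene was higher in trxRNAi by 2.19 ± 0.41 (95% confidence interval 1.33 to 3.06, adjusted p = 0.00208, limma), a 4.57-fold difference. Under sucrose its difference between genotypes was -0.65 ± 0.41 with an adjusted p of 0.446 by limma. The genotype effects under the 2 feeds differed by 2.84 ± 0.58 (adjusted p = 0.00393, limma). DSS against sucrose gave -1.38 ± 0.41 in control (adjusted p = 0.0851) and 1.46 ± 0.41 in trxRNAi (adjusted p = 0.0599), neither past the threshold in limma although the groups did not overlap in either. The trxRNAi value passed with the libraries compared alone (adjusted p = 0.0309), and with a pseudocount of 8 (0.0461), and over all alternatives its adjusted p ran from 0.0309 to 0.287.

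ZnT35C, which exports zinc from cells under the control of MTF-1, was close to absent from these libraries. Its values were 0, 0 and 0 in control sucrose, 0, 0 and 1 in control DSS, then 0, 1 and 1 for trxRNAi on sucrose and 0, 0 and 2 for trxRNAi on DSS. These values are too low to compare groups, and the gene was not tested.

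**Figure D1:**
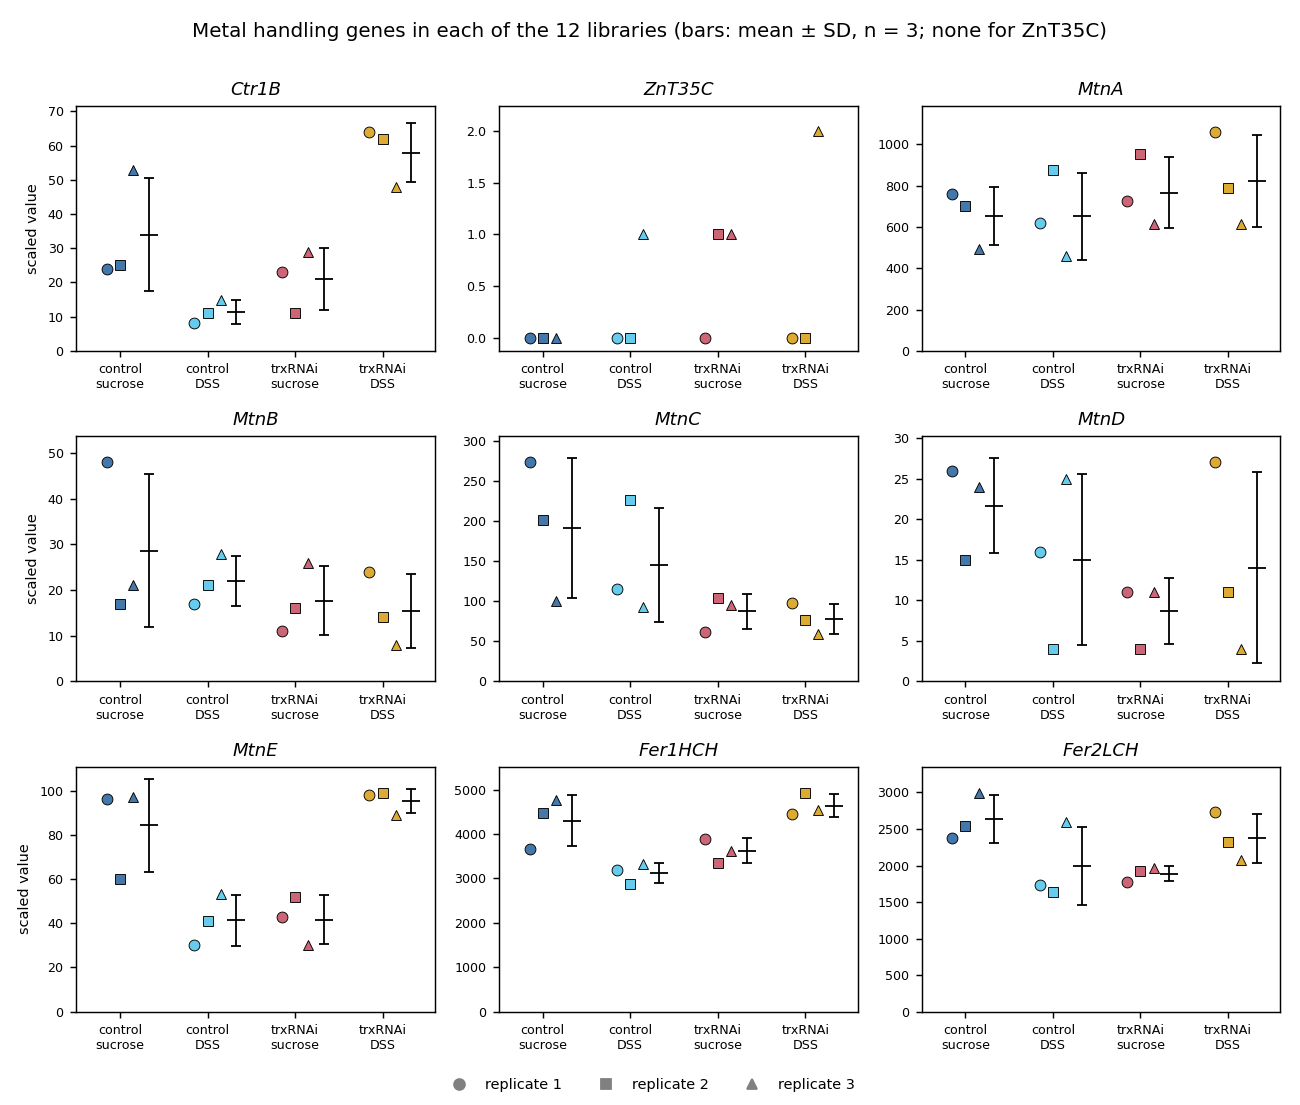
Scaled value (y axis, from 0 except for ZnT35C, a linear scale of its own per gene) of the 9 metal handling genes in the 12 libraries, grouped by genotype and feed (x axis), with 1 point per library and the mean ± SD of 3 libraries. MtnE and Ctr1B stand higher in trxRNAi DSS than in control DSS and trxRNAi sucrose, whereas the MtnA ranges of all 4 groups overlap.

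Among the metallothioneins, MtnE had the same order of group means as Ctr1B, and MtnA did not separate the groups. MtnE had values of 96, 60 and 97 with sucrose and 30, 41 and 53 with DSS in control, against 43, 52 and 30 with sucrose and 98, 99 and 89 with DSS in trxRNAi. The libraries thus fell into a high pair of groups (trxRNAi DSS and control sucrose) and a low pair (control DSS and trxRNAi sucrose), with overlap within each pair and none between them. MtnE was higher in trxRNAi than in control under DSS by 1.20 ± 0.29 (adjusted p = 0.0123, limma), or 2.30-fold. It was higher under DSS than under sucrose in trxRNAi by 1.19 ± 0.29 (adjusted p = 0.0256, limma). The opposite differences, -0.98 ± 0.29 for genotype under sucrose (adjusted p = 0.0607) and -0.997 ± 0.29 for DSS in control (adjusted p = 0.0751), did not pass in limma. The genotype effects under the 2 feeds differed by 2.18 ± 0.41 (adjusted p = 0.00183, limma). Without control DSS replicate 1 the genotype call under DSS ended (adjusted p = 0.0664), where all alternatives ran from 0.00726 to 0.0664. The feed call in trxRNAi ended without any of its groups' libraries but trxRNAi sucrose replicate 2, with adjusted p between 0.0708 and 0.146, where all alternatives ran from 0.0138 to 0.146.

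MtnA, the metallothionein gene with the highest values here, had 761, 703 and 493 with sucrose and 619, 878 and 458 with DSS in control, against 726, 954 and 616 with sucrose and 1060, 791 and 616 with DSS in trxRNAi. All 4 ranges overlapped. Its genotype differences were 0.23 ± 0.26 under sucrose (95% confidence interval -0.32 to 0.78) and 0.35 ± 0.26 under DSS (-0.20 to 0.90), so that a difference of up to 0.90 on the log2 scale lies within the interval under DSS. The 5 metallothionein genes summed to 158 ± 41.9 values per 1000000 (SD, n = 3) with sucrose and 154 ± 41.9 with DSS in control, against 157 ± 25.7 with sucrose and 165 ± 36.0 with DSS in trxRNAi. These group means lay well within the spread between replicates.

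MtnC had lower means in trxRNAi in both feeds, but the difference did not pass the test. Its values were 273, 201 and 100 with sucrose and 115, 226 and 93 with DSS in control, against 62, 104 and 95 with sucrose and 97, 76 and 59 with DSS in trxRNAi. In each feed 2 of 3 control libraries lay above all trxRNAi libraries, and the lowest control library of each feed lay within the trxRNAi range. The difference averaged over both feeds was -0.92 ± 0.27 (95% confidence interval -1.49 to -0.35), with an unadjusted p of 0.00373 and an adjusted p of 0.0722 by limma. That adjusted p was 0.0138 without control sucrose replicate 3 and 0.0329 without control DSS replicate 3, in a range of 0.0138 to 0.167 over all alternatives. Per feed, the differences were -1.04 ± 0.38 under sucrose (adjusted p = 0.143) and -0.81 ± 0.38 under DSS (adjusted p = 0.222) by limma. Without control sucrose replicate 3 the sucrose difference was -1.44 and passed (adjusted p = 0.0352, range 0.0352 to 0.405).

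The spread of MtnA and MtnC between libraries moved with the trypsin gene alphaTry of mature enterocytes, a pattern picked out after the values were seen. It had values of 4685, 2609 and 640 with sucrose and 1803, 4477 and 1295 with DSS in control, against 1103, 2452 and 1036 with sucrose and 1183, 1064 and 984 with DSS in trxRNAi. The library highest in alphaTry was also the highest in MtnA and in MtnC in each of the 4 groups. Within groups, MtnA ranked its 3 libraries as alphaTry did in 4 of 4 groups and MtnC in 3 of 4. MtnE and Fer2LCH did so in 1 of 4 groups and Fer1HCH in 0. The other enterocyte markers did not all share the alphaTry order, with betaTry and Jon25Bii in 3 of 4 groups, Jon99Ciii in 2, Mal-A1 and Npc2d in 1 and Myo31DF in 0. The marker nub matched in 1 group, trxRNAi DSS, only through a tie (49, 49 and 43). Of the 6649 tested genes without ties, 21 (0.316%) ranked their libraries as alphaTry did in all 4 groups. How many matched in 3 of 4 groups, or shared the highest library in all 4, as MtnC did, was not counted. The MtnC pattern therefore has no share of all genes beside it. The 5 digestive enzyme genes of the enterocyte list (Jon25Bii, Jon99Ciii, betaTry, alphaTry and Mal-A1) took from 0.0181 to 0.133% of the total value, and the trypsin genes are close paralogs whose reads may be shared. The 8 enterocyte markers, each detected, summed to 408 to 1483 per 1000000 with sucrose and 537 to 1500 with DSS in control, against 442 to 814 with sucrose and 400 to 499 with DSS in trxRNAi. Their part in the MtnC difference was not tested.

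**Figure D2:**
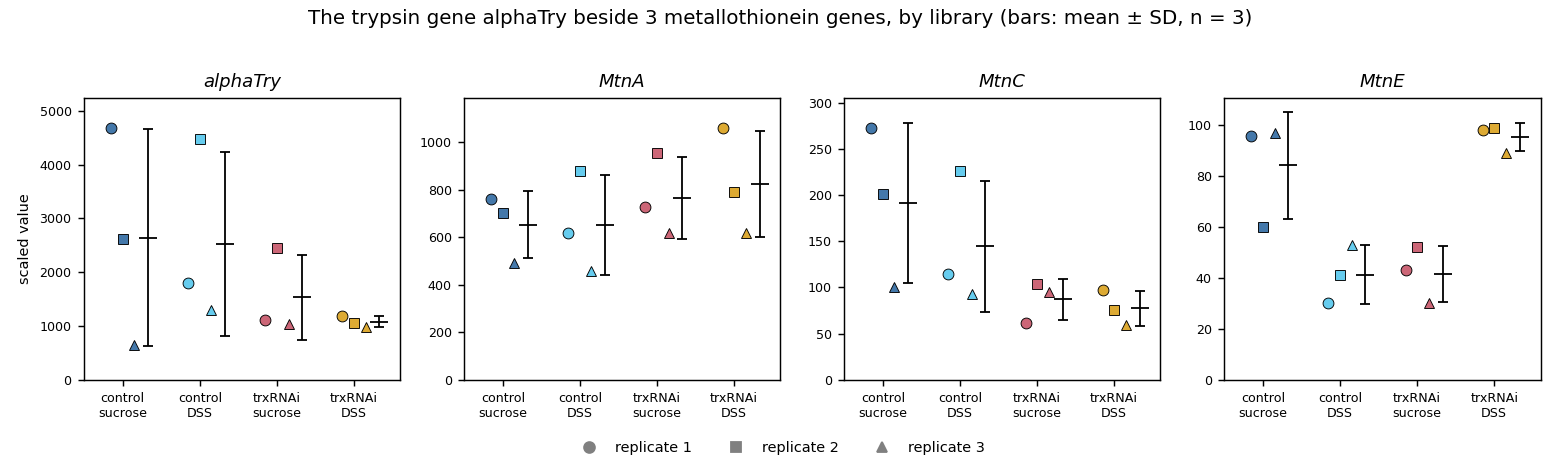
Scaled value (y axis, linear from 0) of the trypsin gene alphaTry and of MtnA, MtnC and MtnE in each library by group (x axis), with the mean ± SD of 3 libraries and the replicate number shown by the symbol. The same library is highest for alphaTry, MtnA and MtnC in all 4 groups, while MtnE separates the groups in another way.

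The ratio of MtnC to MtnA and the MtnA share of the metallothionein value separated the libraries by genotype label. These ratios were formed after the values were seen and are given without a test. How many other gene pairs separate the labels in this way was not counted. MtnC stood at 0.203 to 0.359 of the MtnA value in control sucrose and 0.186 to 0.257 in control DSS, against 0.0854 to 0.154 in trxRNAi sucrose and 0.0915 to 0.0961 in trxRNAi DSS. All 6 trxRNAi libraries lay below all 6 control libraries. MtnA made up 63.2 to 70.6% of the summed metallothionein value in control sucrose, 69.7 to 77.7% in control DSS, 79.2 to 85.1% in trxRNAi sucrose and 79.4 to 81.2% in trxRNAi DSS. MtnE took a larger part where its own value was high, with 6.02 to 13.2% in control sucrose and 7.50 to 11.5% in trxRNAi DSS, against 3.50 to 8.07% in control DSS and 3.86 to 5.04% in trxRNAi sucrose.

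MtnB and MtnD were low and variable. MtnB ranged from 17 to 48 with sucrose and 17 to 28 with DSS in control, against 11 to 26 with sucrose and 8 to 24 with DSS in trxRNAi, with overlap between all groups. MtnD had 26, 15 and 24 in control sucrose and 11, 4 and 11 in trxRNAi sucrose, groups that did not overlap, with a difference of -1.20 ± 0.62 (adjusted p = 0.322, limma). Under DSS it had 16, 4 and 25 in control and 27, 11 and 4 in trxRNAi. The difference of -0.12 there changed sign with the library left out and cannot be given a direction. MtnD and its neighbour MtnE thus showed different group patterns under DSS, but the difference between the 2 genes was not tested.

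The iron storage genes differed less in fold than Ctr1B and MtnE. Fer1HCH, the heavy chain that oxidises iron, had values of 3664, 4471 and 4767 with sucrose and 3193, 2873 and 3317 with DSS in control, against 3899, 3340 and 3629 with sucrose and 4453, 4930 and 4538 with DSS in trxRNAi. Control DSS lay below every library of the other 3 groups, and trxRNAi DSS lay above both control DSS and trxRNAi sucrose. Under DSS Fer1HCH was higher in trxRNAi by 0.57 ± 0.14 (adjusted p = 0.0139, limma), a 1.48-fold difference. The genotype effects under the 2 feeds differed by 0.81 ± 0.20 (adjusted p = 0.0144, limma). Both calls depended on the scaling. With every library rescaled to the mean total, which moved the median of all genes to -0.135 for the DSS comparison and to -0.23 for the interaction, the values were 0.44 (adjusted p = 0.0653) and 0.59 (adjusted p = 0.0833). The call under DSS also ended without control DSS replicate 2 (adjusted p = 0.0579) and without trxRNAi DSS replicate 2 (0.0671), and over all alternatives the adjusted p ran from 0.00939 to 0.0721.

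Fer2LCH, the light chain, had values of 2370, 2544 and 2995 with sucrose and 1730, 1644 and 2602 with DSS in control, against 1775, 1927 and 1965 with sucrose and 2732, 2316 and 2071 with DSS in trxRNAi. The trxRNAi sucrose libraries lay below all control sucrose libraries, and control DSS replicate 3 stood above its 2 companions. Its differences were -0.47 ± 0.18 for genotype under sucrose (adjusted p = 0.145), 0.27 ± 0.18 for genotype under DSS (adjusted p = 0.407) and 0.75 ± 0.25 for the interaction (adjusted p = 0.0776) by limma. Without control DSS replicate 3 these had adjusted p-values of 0.0413, 0.0465 and 0.00458, the lowest of ranges that reached 0.356, 0.74 and 0.204. That library is not part of the sucrose comparison, whose difference stayed at -0.47 while the shared spread and the adjustment changed. The ratio of the Fer2LCH to the Fer1HCH value was 0.615 ± 0.0407 (SD, n = 3) with sucrose and 0.633 ± 0.132 with DSS in control, against 0.525 ± 0.0626 with sucrose and 0.513 ± 0.0871 with DSS in trxRNAi, with overlapping ranges. The ferritin genes summed to 989 to 1203 per 1000000 of total value with sucrose and 767 to 1040 with DSS in control, against 865 to 990 with sucrose and 1092 to 1210 with DSS in trxRNAi.

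Under DSS, then, 3 of the 8 tested metal handling genes (Ctr1B, MtnE and Fer1HCH) were higher in libraries labelled trxRNAi and 0 were lower, where 3.82% of all tested genes were higher, 5.62% lower and 9.44% either. Over all genes 321 were higher and 472 lower, and with every library rescaled to the mean total 200 and 594. With that rescaling Ctr1B and MtnE still passed, and Fer1HCH did not (adjusted p = 0.0653, limma). Without it, the median difference of the 8 genes was 0.31, and that of all tested genes was -0.0055. Under sucrose 0 of 8 passed in limma, where 4.68% of all tested genes did (2.36% higher and 2.32% lower), and 0 passed with limma voom. Over all genes 198 were higher and 195 lower, and with the mean-total rescaling 278 and 150. At an unadjusted p under 0.05 there were 3 of them (MtnC, MtnE and Fer2LCH), all lower, where 18.3% of all tested genes reached this in either direction, and the median was -0.61 against 0.015 for all tested genes. MtnD, MtnE and Fer2LCH were lower without overlap under sucrose, as were 11.7% of tested genes. Under DSS the same 3 genes that passed were higher without overlap, as were 12.2% of tested genes.

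**Figure D3:**
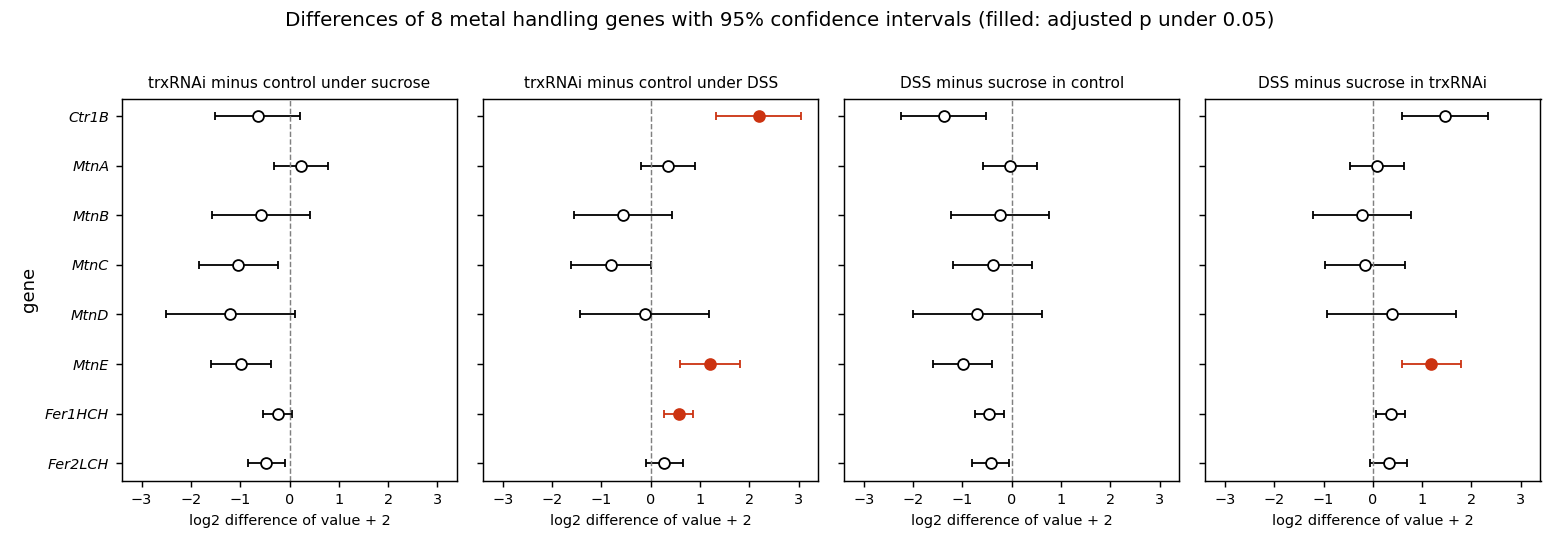
Log2 difference of value plus 2 (x axis) of the 8 tested genes (y axis) in 4 comparisons, with 95% confidence intervals from the limma model and filled points where the adjusted p was under 0.05. Ctr1B, MtnE and Fer1HCH are filled for genotype under DSS and MtnE for feed in trxRNAi, with 0 filled points in the other 2 panels.

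For the feed itself, 0 of 8 genes passed in control progenitors in limma and 0 with limma voom, where 3.08% of all tested genes passed in limma (1.73% higher and 1.36% lower). Over all genes 145 were higher and 114 lower, and with the mean-total rescaling 198 and 66. At an unadjusted p under 0.05 there were 4 (MtnE, Fer1HCH, Fer2LCH and Ctr1B), all lower under DSS, where 14.4% of all tested genes reached this in either direction. MtnE, Fer1HCH and Ctr1B were lower without overlap, where 8.17% of tested genes were lower and 7.97% higher without overlap. In trxRNAi progenitors 1 of 8, MtnE, was higher under DSS, where 0.964% of all tested genes were higher, 2.58% lower and 3.55% either. MtnE, Fer1HCH, Fer2LCH and Ctr1B were higher without overlap, as were 9.67% of tested genes. Fer1HCH gave 0.36 ± 0.14 (adjusted p = 0.237) and Fer2LCH 0.32 ± 0.18 (adjusted p = 0.513) there by limma. The comparisons share libraries, so the values in the 2 feeds and genotypes are not independent of each other.

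The difference between the genotype effects under DSS and under sucrose passed for 3 of 8 genes (MtnE, Fer1HCH and Ctr1B), all positive, where 3.61% of all tested genes passed with a positive and 5.25% with a negative difference, 8.86% in all. These were 303 and 441 genes, and with the mean-total rescaling 166 and 600. With that rescaling MtnE and Ctr1B still passed, and Fer1HCH did not (adjusted p = 0.0833, limma). Averaged over both feeds, 0 of 8 passed in limma and 0 with limma voom, where 3.75% of tested genes did in limma (1.13% higher and 2.62% lower). At an unadjusted p under 0.05 there were 2 of 8, MtnC (-0.92) and Ctr1B (0.77 ± 0.29, adjusted p = 0.153), where 18.5% of all tested genes reached this.

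Of 37 other genes of copper, zinc and iron handling, 25 were tested, and 0 passed in limma for genotype under either feed, for feed in either genotype, for the interaction or for the average. With 3.08 to 9.44% of all tested genes called in these comparisons, 0 of 25 is near that share. With limma voom 0 passed as well. At an unadjusted p under 0.05 the counts were 4, 1, 1, 1, 2 and 2 of 25 in that order, where 18.3, 22.4, 14.4, 12.6, 20.8 and 18.5% of all tested genes reached this. The metal-responsive factor gene MTF-1 differed by -0.47 ± 0.23 between genotypes under sucrose (adjusted p = 0.289) and by 0.19 ± 0.23 under DSS (adjusted p = 0.693). Ctr1A, which imports copper in most tissues, gave -0.21 ± 0.45 under DSS (adjusted p = 0.844), and the copper pump gene ATP7 gave -0.25 ± 0.24 (adjusted p = 0.604). Among iron genes, the importer gene Mvl gave -0.83 ± 0.35 under sucrose (adjusted p = 0.206), and the iron-responsive protein gene IRP-1A gave -0.23 ± 0.15 under DSS (adjusted p = 0.419). Zip99C, a member of the zinc transporter family that loads iron into the secretory pathway in flies, had 150, 120 and 151 in control sucrose and 89, 88 and 73 in trxRNAi sucrose. Those groups did not overlap, and the difference of -0.74 ± 0.22 had an adjusted p of 0.0723 by limma. It passed without control DSS replicate 2 or without control DSS replicate 3. Neither library is part of this comparison, so leaving it out changes the shared spread and the adjustment, not the difference. These p-values do not show that the genes were unchanged. For MTF-1 under DSS the 95% confidence interval ran from -0.29 to 0.68.

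**Figure D4:**
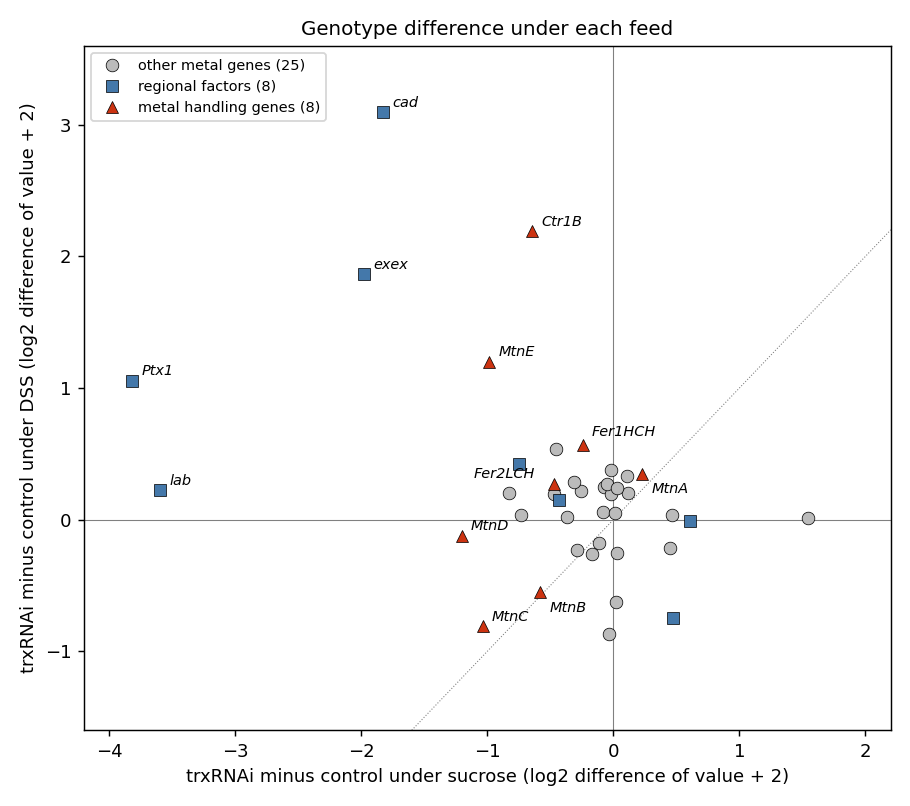
Log2 difference of value plus 2 between trxRNAi and control under sucrose (x axis) and under DSS (y axis) for the 8 tested metal handling genes, 25 other metal genes and 8 regional transcription factors, where the dotted line marks equal differences. Ctr1B, MtnE, cad and exex lie at the upper left, negative under sucrose and positive under DSS, although the sucrose differences of Ctr1B, MtnE and cad did not pass. Other genes share these signs, among them Ptx1, which lies furthest to the left, lab, Fer1HCH and Fer2LCH.

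Of the 8 regional factors 5 (lab, Ptx1, cad, exex and vnd) had a positive interaction, where 3.61% of all tested genes did. GATAe gave 0.58 ± 0.23 (adjusted p = 0.135), and dve (-0.62 ± 0.55, adjusted p = 0.609) and nub (-1.22 ± 0.58, adjusted p = 0.246) lay on the other side of 0 without passing in limma. The copper cell factor gene lab had 44, 35 and 26 in control sucrose, 13, 8 and 13 in control DSS, 1 in each trxRNAi sucrose library and 13, 14 and 13 in trxRNAi DSS. Its genotype effects under the 2 feeds differed by 3.82 ± 0.60 (adjusted p = 0.00043, limma), as did those of Ptx1, by 4.87 ± 0.47 (adjusted p = 2.89e-06). For lab the genotype difference under DSS was 0.23 ± 0.43 (adjusted p = 0.825, limma), and its DSS ranges overlapped. The potassium channel gene KCNQ, another middle midgut marker, differed between feeds in its genotype effect by 3.13 ± 0.78 (adjusted p = 0.0168), and the other 4 of the 6 copper cell and middle midgut markers did not pass. The 6 markers summed to 40.9 to 54.4 per 1000000 with sucrose and 32.8 to 43.6 with DSS in control, against 40.5 to 55.2 with sucrose and 46.8 to 49.6 with DSS in trxRNAi. This sum is weighted to Prestin and hides the changes of lab and KCNQ. Prestin values averaged 161 with sucrose and 112 with DSS in control, against 173 with sucrose and 181 with DSS in trxRNAi. The posterior factor gene cad and the homeobox gene exex were higher in trxRNAi under DSS by 3.10 ± 0.61 (adjusted p = 0.00465) and 1.87 ± 0.32 (adjusted p = 0.00113). The hemocyte-listed gene crq had 1021, 1127 and 910 with sucrose and 582, 667 and 504 with DSS in control, against 591, 599 and 585 with sucrose and 1208, 1258 and 1132 with DSS in trxRNAi, with the same high pair and low pair of groups as MtnE. Whether the make-up of the sorted cells by region had a part in the metal gene values was not tested.

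Genes whose pattern over the 12 libraries was nearest to each gene that passed were found by the root mean square difference of centred log2 values. For MtnE these were Fancl (0.263), CG6454 (0.299), CG11275 (0.301) and CG13563 (0.303), where the median over all tested genes was 0.718. For Ctr1B they were Glyat (0.338), CG43341 (0.40), CG6287 (0.406) and Galphaf (0.458), with a median of 0.977. For Fer1HCH they were Polr3F (0.105), the ribosomal protein gene RpS13 (0.112), the chloride channel gene ClC-c (0.115) and the succinate-CoA ligase gene ScsbetaA (0.115), with a median of 0.439. CG11275, for example, had 81, 69 and 96 with sucrose and 40, 61 and 40 with DSS in control, against 52, 68 and 49 with sucrose and 104, 106 and 84 with DSS in trxRNAi. Among the metal handling genes themselves, Fer1HCH and Fer2LCH were nearest to each other at 0.218. MtnE lay 0.461 from Fer2LCH, 0.469 from Fer1HCH, 0.601 from Ctr1B and 0.891 from its neighbour MtnD. MtnE and Ctr1B were on the same side of their means in 10 of the 12 libraries. This distance also grows with the size of each gene's changes and with noise at low values. Fer1HCH, which varied little, was thus 0.434 from MtnA, and these distances do not rank likeness of group pattern.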

How the data were processed

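RNA of 12 libraries was measured with a 3′ mRNA kit, per the labels' protocols. The deposited values were treated as a score, since they look like read counts that the authors scaled by 1 factor per library and rounded. In 11 of 12 libraries a value class between 1 and 25 was empty or raised, and in 1 library none was. Per the submitters' processing notes, the build was dm6, and HISAT2, Bowtie2 and DESeq2 are among the tools named, with no roles. The counter, the annotation and whether strand was used were not given in the sources used here. Such scaling would lose a change in the total RNA of a cell.

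Tests used limma 3.58.1 (R 4.3.3, statmod 1.5.0) on log2 of value plus a pseudocount of 2, so folds of low genes come out too small. A gene was tested where 3 or more libraries reached 10. All 12 libraries entered 1 model with a mean per group, an intensity trend and robust variance. The script was tested on simulated data. Symbols came from a FlyBase table (17520 of 17617 identifiers matched) and positions from an Ensembl annotation of dm6. In replicate pairs at most 2.74% of tested genes had equal values, so no replicate was a copy of another. Every library was counted as a sample of its own, although this check cannot show that they came from separate flies. The genes and lists were chosen with earlier results of these data known. Named were the 9 genes, other metal genes past the threshold, nearest patterns, and lab and Ptx1. No other metal gene passed, so MTF-1, Ctr1A, ATP7, Mvl, IRP-1A and Zip99C were named outside this rule after their values were seen. So were KCNQ, Prestin, cad, exex, vnd, GATAe, dve, nub, crq, alphaTry, NPF, pros, Dl, mira and spdo. Alternatives were other scalings, filters, pseudocounts, limma voom, a replicate block, only the libraries compared, and each library left out. P-values measure the spread between these libraries, which may be technical.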

Additional observations from a re-analysis of the deposited data

Results flagged for a closer look

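In the 22 genes listed here, the genotype effect under DSS differed from that under sucrose in the test of the difference itself by limma. Most were named after their values were seen or chosen for a near pattern. Their number therefore cannot be set against the 8.86% of all tested genes that passed. On the log2 scale the genotype effect was larger under DSS by 2.18 for MtnE (adjusted p = 0.00183), by 0.81 for Fer1HCH (adjusted p = 0.0144) and by 2.84 for Ctr1B (adjusted p = 0.00393). Under sucrose the differences of these 3 genes were -0.98, -0.24 and -0.65, and under DSS 1.20, 0.57 and 2.19.

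Among the regional and marker genes of these 22, which were picked from longer lists, the difference was 3.82 for lab, 4.87 for Ptx1 and 3.13 for KCNQ. It was 3.84 for exex, 4.92 for cad, 1.17 for vnd and 1.82 for crq. Of the 22 it was negative for 3 genes, the progenitor markers Dl (-1.96), spdo (-3.88) and mira (-2.61). Over the full marker lists more genes passed with a negative difference. These were 4 of 8 progenitor, 3 of 7 enteroendocrine, 3 of 4 neuron, 1 of 4 visceral muscle and 1 of 8 enterocyte markers tested. A positive difference passed for 5 of 8 regional, 2 of 6 copper cell and middle midgut, 2 of 7 enteroendocrine and 1 of 2 hemocyte markers tested. The lowest differences were -5.65 in the enterocyte list and -4.62 in the enteroendocrine list. For the target trx the difference was 0.92 (adjusted p = 0.0416). That call ended with the mean-total rescaling and with limma voom (adjusted p = 0.119 in both) and in 8 of 12 fits that left out a library (adjusted p = 0.0564 to 0.116). Of the genes chosen for a pattern near that of a metal gene, 8 of 12 passed, a choice that favours it, with 3.72 for Glyat, 0.64 for RpS13, 2.74 for CG6287, 2.21 for CG43341, 1.58 for CG11275, 0.84 for ScsbetaA, 2.27 for Fancl and 1.89 for CG6454.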

How the results depend on the processing

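Of the metal genes' calls, those of Ctr1B under DSS (adjusted p at most 0.0139) and of Ctr1B (at most 0.0144) and MtnE (at most 0.00763) for the interaction held in all alternatives run. With limma voom Fer1HCH gave 0.44 under DSS (adjusted p = 0.0721) and 0.59 for the interaction (adjusted p = 0.086). As run here, limma voom scales each library by its total, as the rescaling to the mean total does, and that rescaling also gave 0.44 and 0.59. What else bore on these calls was not tested. The same-numbered libraries correlated from -0.20 to 0.276 in their deviations, with 7 of 18 pairs over 0.1, short of the criterion for pairing (every pair over 0.1). A library correlated best with its own number in 20 of 36 cases, where 12 would be if the numbers were unrelated, so some shared handling by number cannot be dismissed. The replicate block raised the called metal genes for feed in trxRNAi from 1 to 2 (Ctr1B, adjusted p = 0.0494) and for the averaged genotype effect from 0 to 1 (MtnC, adjusted p = 0.0312). A pseudocount of 8 and the use of only the libraries compared also gave 2 for feed in trxRNAi, and the latter gave 93 in place of 259 genes for feed in control, with fewer samples in the fit. Leaving out each library in turn gave 0 to 2 called metal genes for genotype under sucrose, 2 to 4 under DSS, 0 to 2 for feed in control and in trxRNAi, 3 to 4 for the interaction and 0 to 1 for the average. Over all genes it gave 183 to 582 for genotype under sucrose, 133 to 247 for feed in control, 167 to 382 for feed in trxRNAi and 185 to 629 for the average. The highest count in each of these 4 came without control DSS replicate 3.

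Signs that changed belonged to differences that did not pass. Rescaling to the mean total and limma voom gave 0.11 and 0.12 for MtnA by feed in control, -0.10 and -0.11 for MtnA in the interaction, and -0.18 and -0.21 for MtnB in the interaction, and voom gave -0.0059 for MtnC there. With single libraries left out, feed in control ranged from -0.27 to 0.20 for MtnA and from -0.52 to 0.17 for MtnB. Feed in trxRNAi ranged from -0.11 to 0.28 for MtnA, -0.56 to 0.12 for MtnB, -0.38 to 0.015 for MtnC and -0.19 to 0.95 for MtnD. The interaction ranged from -0.11 to 0.36 for MtnA, -0.39 to 0.37 for MtnB and -0.083 to 0.63 for MtnC. Genotype under DSS ranged from -0.75 to 0.44 for MtnD and from -0.30 to 0.036 for trx. The averaged genotype effect ranged from -0.0029 to 0.21 for MtnE and from -0.16 to 0.0040 for Fer2LCH. Values near 10 rest on few reads, which limits MtnB, MtnD and Ctr1B most.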
